A study of Rattus norvegicus with 13 samples.

Results

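Overlapping hotspot windows are places where the merged map of rat meiotic DSB hotspots lists 2 or more hotspots so near each other that their windows share bases. The members were the windows on chromosomes 1 to 20 whose start lay less than 3000 bp from the start of another window, and no strength or call entered that choice. They numbered 15870 of 91120 autosomal windows, or 17.4% (Wilson 95% interval 17.2 to 17.7%), of 96640 windows in all. All 15870 were 3000 bp long, so every member shared at least 1 bp with its neighbour. They formed 7416 groups, of which 6526 (88.0%) held 2 windows, 776 held 3, 91 held 4, 14 held 5, 7 held 6 and 2 held 7, and the neighbours within groups made 8454 consecutive pairs.

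The map joins DMC1 SSDS libraries from adult testes of wild-type SHR (SHR/OlaIpcv), WKY and BN (BN/RIJHsd) rats and of SHR rats with 1 functional copy of Prdm9 (KO/wt) or none (KO/KO), with 1 library per strain and genotype. SHR (spontaneously hypertensive rat) and its relative WKY (Wistar Kyoto) carry the same Prdm9 allele, and BN (Brown Norway) carries another. The KO/KO male was homozygous for KO39, a germline deletion of 39 bp that removes bases from an exon of the PR/SET domain in every cell, and the wild-type SHR male was its littermate. Each row of the map gives, for every library, a call (hotspot or not) and a strength, a whole number that can be negative and whose definition and scaling are not given in the sources used here. Without replicate libraries no test between strains or genotypes was possible, and intervals below cover only the counting of windows or pairs.

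Meiotic recombination starts from programmed DSBs, and the strand exchange protein DMC1 coats the single-stranded DNA on both sides of each break, which SSDS isolates with an antibody and sequences. PRDM9 is a histone methyltransferase with a zinc-finger array that binds DNA. Each allele of it marks its own set of sites with H3K4me3 and H3K36me3, and breaks form there. Without PRDM9, breaks form at default sites, where other methyltransferases place H3K4me3, such as promoters. Overlapping windows thus show where sites of 2 alleles, or a PRDM9 site and a default site, neighbour each other within a few kilobases.

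The lesion behind the KO/KO and default calls is shown because the classes below rest on it. In the partial Prdm9 cDNA that the study lists, the KO39 sequence had 329 bases and the wild-type SHR sequence 358. The 29 missing bases, which are no multiple of a codon, stand in capitals between flanking bases in lower case. The alignment allows the gap to start up to 2 bases earlier.
wild-type: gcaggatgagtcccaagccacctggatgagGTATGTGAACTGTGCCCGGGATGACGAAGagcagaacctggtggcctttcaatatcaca
KO39: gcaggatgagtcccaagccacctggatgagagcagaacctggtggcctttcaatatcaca

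Every window was classed by the libraries that called it. SHR/WKY-allele windows were called in wild-type SHR or WKY and neither in BN nor in KO/KO. BN-allele windows were called in BN and in neither of those kinds, and default windows in KO/KO and in no wild-type library. Mixed windows were called in libraries of at least 2 of these 3 kinds, and KO/wt-only windows in the KO/wt library alone. KO/wt calls set no other class, so that KO/wt could be read against the classes. Of the members, 6513 were SHR/WKY-allele windows (41.0%), 5122 default (32.3%), 3341 BN-allele (21.1%), 721 KO/wt-only (4.54%) and 173 mixed (1.09%).

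The share of a class that overlapped another window was alike for the SHR/WKY allele (18.1%, 17.7 to 18.5%) and the BN allele (18.3%, 17.8 to 18.9%). It was lower for default windows, at 14.7% (14.3 to 15.1%), an interval that did not meet the other 2. Of the 941 autosomal KO/wt-only windows, 76.6% (73.8 to 79.2%) overlapped another window. A KO/wt-only window is by definition one that shares its window with no call of another library, and no starts in the table were nearer than 401 bp, so a KO/wt call nearer than that to another call is not seen as a window of its own. By chromosome, the share of windows that overlapped ran from 15.7% (14.7 to 16.8%) on chromosome 10 to 19.7% (18.5 to 20.9%) on chromosome 14.

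Members were called as hotspots about as often as all autosomal windows were, and in KO/KO and WKY less often. WKY called 5712 of the 15870 members (36.0%), against 38.3% of all autosomal windows, and KO/KO called 5202 (32.8%), against 38.8%. SHR called 3404 (21.4%, against 21.8%), KO/wt 3577 (22.5%, against 21.6%) and BN 3455 (21.8%, against 20.8%). Counted from the hotspots, 17.1% of SHR, 16.4% of WKY, 18.2% of KO/wt, 18.2% of BN and 14.7% of KO/KO autosomal hotspots lay in an overlapping window. Called members had median strengths of 63 in SHR, 205 in WKY, 60 in KO/wt, 61 in KO/KO and 72 in BN, and called windows that overlap no other had 74, 211, 73, 64 and 71.

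Of the 8454 consecutive pairs, 5220 (61.7%, 60.7 to 62.8%) joined 2 different ones of the SHR/WKY allele, the BN allele and default sites. Over all window pairs, neighbours or not, the share of such unlike pairs was 60.7% below 3000 bp and 53.7% (20771 of 38654, 53.2 to 54.2%) at 3 to 12 kb. This share also depends on the number of like pairs. Like pairs of default and of BN-allele sites were fewer per 500 bp below 2000 bp than beyond 3 kb, as given below. The SHR/WKY allele stood next to a default site in 2285 pairs (27.0%) and next to a BN-allele site in 1608 (19.0%), and the BN allele next to a default site in 1327 (15.7%). Pairs within a class numbered 2243 (26.5%, 25.6 to 27.5%), with 1405 of the SHR/WKY allele, 573 of default sites and 265 of the BN allele. A KO/wt-only window took part in 822 pairs (9.72%), and mixed windows without one in 169.

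Start distances ran from 401 to 2999 bp with a median of 1763 bp, and 2215 pairs (26.2%) lay below 1000 bp. At the limit itself, 2 pairs stood at 2999 bp and 2 at 3000 bp. Both pairs just inside joined an SHR/WKY-allele window to a default window. The first, on chromosome 2 of rn5 from 246517284 and 246520283, had strengths of 72 and 5 in SHR, 192 and -12 in WKY and -10 and 286 in KO/KO. In the second, on chromosome 12 from 25947206 and 25950205, they were 134 and 6 in SHR, 729 and -3 in WKY and -1 and 58 in KO/KO. Just outside, a BN-allele pair on chromosome 11 from 16848872 and 16851872 had 418 and 35 in BN, and an SHR/WKY-allele pair on the same chromosome from 84880546 and 84883546 had 173 and 541 in WKY and 19 and 69 in SHR. An rn5 gene annotation and genome sequence were not used here, so positions are given without their genes.

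For the dependence on distance, all window pairs up to 12 kb apart, neighbours or not, were counted in bins of 500 bp, and the 18 bins from 3 to 12 kb served as the level for each type of pair. Sites of the 2 alleles formed 362 pairs from 500 to 1000 bp, above each of the 18 bins beyond 3 kb, and then stood at the level of those bins, with 315, 312, 316 and 285 pairs in the 4 bins from 1000 to 3000 bp against a mean of 309 (282 to 336) beyond. Between the SHR/WKY allele and default sites there were 354 pairs from 500 to 1000 bp and 417 from 1000 to 1500 bp, below each of the 18 bins beyond 3 kb (501 to 590, mean 544), then 504 pairs from 1500 to 2000 bp and 544 and 550 up to 3000 bp. Between the BN allele and default sites there were 216 and 233 pairs in these first 2 bins against a mean of 301 (279 to 331), then 283, 311 and 270. Sites of different alleles were therefore about as frequent from 1 to 3 kb as farther apart, and allele and default sites less frequent below 1.5 kb.

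**Figure D1:**
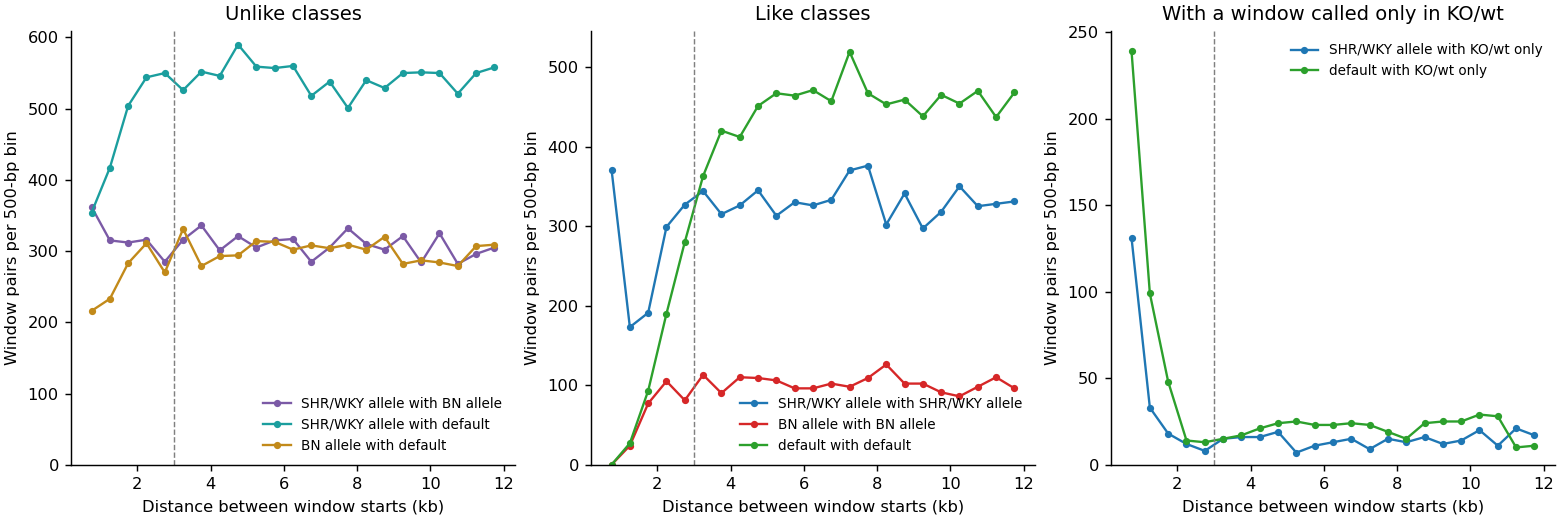
Number of autosomal window pairs per 500-bp bin (y axis) by the distance between window starts in kb (x axis), for pairs of unlike classes, of like classes and with a KO/wt-only window. The dashed line marks 3 kb; like pairs of BN-allele and of default sites are at 0 below 1 kb, and pairs with a KO/wt-only window have their highest count there.

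Sites of 1 class stood apart. No consecutive default pair was nearer than 1148 bp and no BN-allele pair nearer than 1053 bp. Default pairs numbered 27, 93, 190 and 280 in the 4 bins from 1000 to 3000 bp, all below the lowest bin beyond (363, mean 452). BN-allele pairs numbered 24 and 77 from 1000 to 2000 bp, against a mean of 102 (86 to 126), and 105 and 81 from 2000 to 3000 bp. In a library by library count, both windows of a consecutive pair were called in 146 pairs in SHR, 726 in WKY, 144 in KO/wt, 597 in KO/KO and 303 in BN. Only 2 of these pairs, both in SHR, lay below 1000 bp, and the nearest stood 942 bp apart in SHR, 1035 bp in WKY, 1097 bp in KO/wt, 1053 bp in BN and 1148 bp in KO/KO. How near the caller of the authors lets 2 hotspots of 1 library stand is not given in the sources used here, and its part in these gaps was not tested. The weaker of 2 such hotspots had a median of 0.446 of the strength of the stronger in SHR, 0.506 in WKY, 0.391 in KO/wt and 0.537 in BN, and of 0.407 in KO/KO.

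SHR/WKY-allele pairs had a second peak at short distance. There were 371 of them from 500 to 1000 bp, and 173 and 191 in the 2 bins after it, against a mean of 332 (297 to 376) beyond 3 kb. Of the 543 consecutive pairs below 1000 bp, 541 consisted of a window called in SHR and not WKY beside one called in WKY and not SHR. Apart from 2 SHR pairs, no library called both windows of a pair below 1000 bp, so this makeup follows from the spacing of calls. The 541 pairs had a median start distance of 586 bp. In these 541 pairs the SHR median was 50 in the window that SHR called and 54 in the one that WKY called, and the WKY median was 240 and 295. The strength in a library was thus about as high in the window that library had not called, with median ratios (WKY-called over SHR-called window) of 1 in SHR and 1.10 in WKY. KO/wt called the SHR side in 249 of the 541 and the WKY side in 64, although its medians were 37 and 41, and BN (9 and 9) and KO/KO (3 and 3) showed no signal on either side. Above 1000 bp, where pairs with 2 WKY calls occurred, the makeup changed. There, 368 pairs held 2 windows called in WKY and not SHR, the nearest 1154 bp apart, and 223 pairs held such a window beside one called in both strains, the nearest 1035 bp apart.

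These split calls bear on counts of shared hotspots that require the same window. Of 19898 autosomal SHR hotspots, 17814 (89.5%) were called in WKY in the same window and 2084 were not. Of those 2084, 562 (27.0%, 25.1 to 28.9%) had a WKY hotspot that started less than 1000 bp away and a further 175 (8.40%) one that started 1000 to 2999 bp away. With same-window and near calls together, 92.4% (92.0 to 92.7%) of SHR hotspots had a WKY hotspot within 1000 bp. In the other direction the shares were far lower. Of 34872 autosomal WKY hotspots, 51.1% (50.6 to 51.6%) were called in SHR in the same window and 17058 were not. With calls within 1000 bp added, the share was 52.6% (52.1 to 53.1%). For BN hotspots not called in WKY the shares were 2.25% (2.04 to 2.47%) below 1000 bp and 6.32% (5.98 to 6.68%) from 1000 to 2999 bp. For SHR hotspots not called in KO/KO they were 1.23% (1.09 to 1.40%) and 5.81% (5.49 to 6.15%). With no starts nearer than 401 bp, the first range is the narrower, so the 2 shares of a comparison are not on 1 scale.

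The strength in a window that a library had not called varied with the distance to the nearest called one. For every autosomal window that a library had not called, its strength was divided by that of the nearest window, up to 6000 bp away, that the library had called with a strength above 0. At start distances below 1000 bp the median ratio was 0.930 in SHR (quartiles 0.766 and 1.03, 1122 windows), 0.871 in WKY (0.724 and 0.982, 1484 windows) and 0.915 in KO/wt (0.774 and 1.03, 1340 windows). In BN it was 0.874 (0.739 and 0.968, 700 windows) and in KO/KO 0.855 (0.696 and 0.974, 1041 windows). An uncalled window so near a hotspot thus had nearly the strength of the hotspot itself in all 5 libraries. In SHR and WKY these windows include those of the split pairs described above. The ratios pool like and unlike neighbours, and whether a near window was a separate site was not tested.

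With growing distance the ratio passed through 0 and turned negative before it settled. In SHR the median was 0.440 from 1000 to 1200 bp, 0.0678 from 1200 to 1400 bp and -0.196 from 1400 to 1600 bp. At 1600 to 1800 bp it was -0.317 in SHR, -0.170 in WKY, -0.194 in KO/wt, -0.167 in KO/KO and -0.235 in BN, and the strength was below 0 in 86.7%, 75.5%, 76.0%, 72.1% and 81.1% of these windows. From 2800 to 3000 bp the median was 0.0243 in SHR, 0.0582 in WKY, 0.0588 in KO/wt and 0.0874 in BN. In KO/KO it was 0, with 40.9% of strengths below 0. In SHR and WKY it was 0.0294 and 0.0728 at 3000 to 4000 bp, where windows no longer overlap. The median fell below 0 and rose again in all 5 libraries, although the median strength of called autosomal hotspots was 210 in WKY and 64 to 72 in the others. The extent differed. From 2200 to 2400 bp the median was 0.00782 in BN and still -0.101 in KO/KO.

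**Figure D2:**
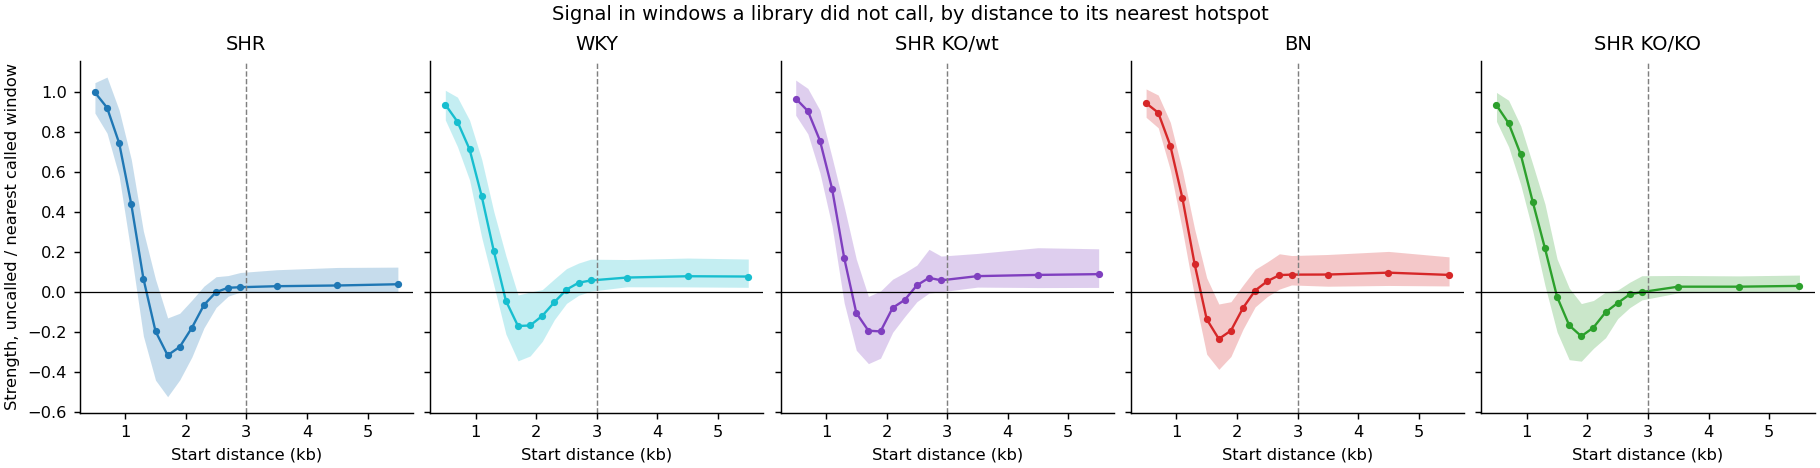
Ratio of the strength in a window a library did not call to that in its nearest called window (y axis) by start distance in kb (x axis), 1 panel per library; points are medians per bin, bands span the quartiles and the dashed line marks 3 kb. In each library the median starts near 1, is negative at 1.6 to 1.8 kb and lies close to 0 from 2.8 kb on.

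Negative strengths were more frequent among members. Uncalled members were below 0 in 22.1% of cases in SHR, 20.0% in WKY, 15.8% in KO/wt, 27.4% in KO/KO and 14.8% in BN, against 13.7%, 10.02%, 8.41%, 17.8% and 8.40% of uncalled windows that overlap no other. In WKY, the 5th and 95th percentiles of uncalled members were -70 and 350, against -7 and 55 for the other uncalled windows. Called hotspots at or below 0 numbered 23 in SHR, 57 in WKY, 24 in KO/wt, 73 in KO/KO and 19 in BN among members, and 3, 2, 1, 33 and 2 among non-members.

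The library with the highest strength was read in each window as deposited and after division by the median called autosomal strength of each library, called scaled below. As deposited, WKY was highest in 7843 of the 15870 members (49.4%), KO/KO in 4719 (29.7%), BN in 2846 (17.9%), KO/wt in 262 (1.65%) and SHR in 140 (0.882%), and 60 were tied. Scaled, KO/KO led 5443 (34.3%), WKY 5151 (32.5%), BN 3438 (21.7%), KO/wt 1201 (7.57%) and SHR 630 (3.97%), with 7 tied. Among windows that overlap no other, WKY led 43.5%, KO/KO 35.5% and BN 18.8% as deposited, and 30.2%, 39.5% and 20.4% scaled. WKY thus led a larger share of members than of other windows, and KO/KO a smaller one, on both scales. Which of WKY and KO/KO led most members depended on the scale.

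In pairs, 1 library was highest in both windows in 3818 of 8454 (45.2%; median start distance 966.5 bp), with WKY on both sides in 2494, KO/KO in 910, BN in 354, KO/wt in 45 and SHR in 15. A different library led on each side in most others. WKY with KO/KO was the most frequent combination (2053 pairs, median 2122 bp), before WKY with BN (1254, 2000 bp) and BN with KO/KO (947, 2078 bp). Next came WKY with KO/wt (98), KO/wt with KO/KO (73), SHR with WKY (64), SHR with KO/KO (32), KO/wt with BN (26), SHR with BN (21) and SHR with KO/wt (6), and a tie stood on 1 side in the remaining pairs. Scaled, 1 library led both windows in 3443 pairs (40.7%), with WKY on both sides in 1258, KO/KO in 1243, BN in 581, KO/wt in 271 and SHR in 90. Scaled combinations were WKY with KO/KO in 1579 pairs, BN with KO/KO in 1158 and WKY with BN in 1050. The pairs led by 1 library lay near each other, and those led by 2 libraries farther apart.

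The start distance separated pairs that could be told apart by strength from those that could not. Below 1000 bp, each window of a pair of the SHR/WKY allele and the BN allele had its own class's library on top in 12.4% of 418 pairs, scaled, and 1 library led both windows in 84.5%. From 1000 to 1500 bp each window was led by its own class in 71.4% of 311 pairs, and from 1500 bp on in 96.0% of 879 pairs. For the SHR/WKY allele beside default sites the shares were 18.3%, 71.6% and 97.2% (383, 387 and 1515 pairs), and for the BN allele beside default sites 14.6%, 79.6% and 96.0% (254, 230 and 843 pairs). As deposited, the last values were 92.3%, 94.4% and 83.5%. The classes rest on calls of these same libraries, so a lead of the own class is partly built in. The shares describe its course with distance.

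**Figure D3:**
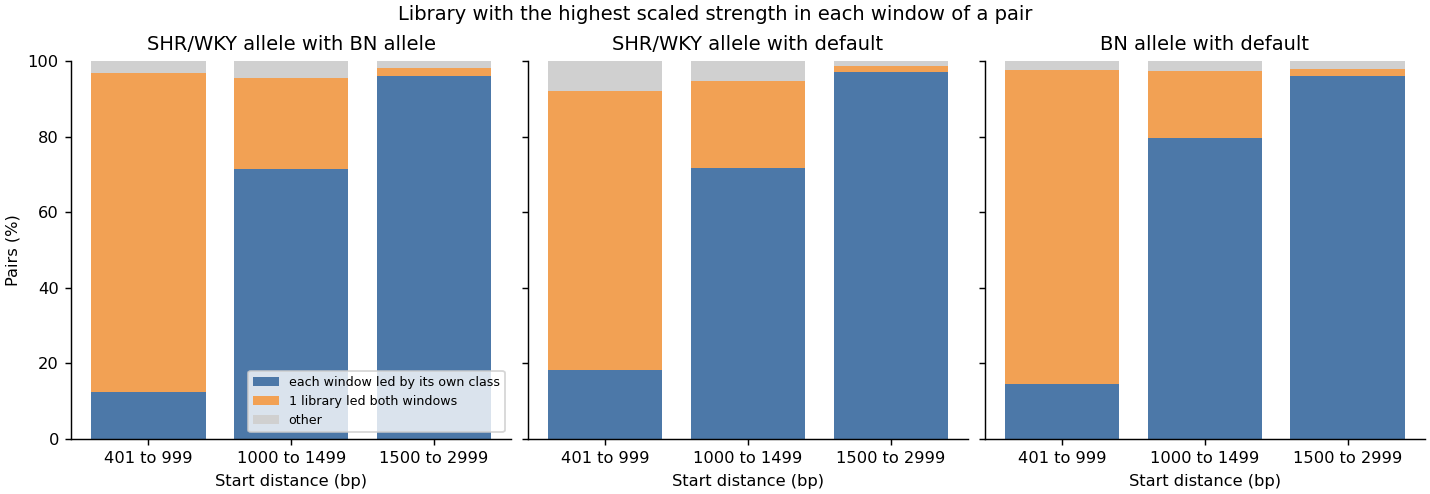
Share of pairs in percent (y axis) in which each window was led by a library of its own class (SHR, WKY or KO/wt for the SHR/WKY allele), in which 1 library led both windows, or another outcome, by start distance in bp (x axis), with strengths divided by the median of each library. In the 3 types of unlike pairs, 1 library led both windows in most pairs below 1000 bp and in few from 1500 bp on.

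Single pairs showed the same course. Among pairs of the SHR/WKY and BN alleles, the strongest lay on chromosome 1 with starts 2438 bp apart. Its SHR/WKY-allele window, from 153000819 to 153003819, had strengths of 3709 in SHR, 8268 in WKY, 6469 in KO/wt, 27 in KO/KO and -45 in BN. The BN-allele window, from 152998381 to 153001381, had 649 in BN, -1569 in SHR, -3736 in WKY, -3040 in KO/wt and -8 in KO/KO. The libraries with the SHR/WKY allele were thus far below 0 in the BN window, and BN was below 0 in theirs.

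At 910 bp, on chromosome 18, no such contrast was left. The BN-allele window, from 63221769 to 63224769, had 584 in SHR, 1137 in WKY, 957 in KO/wt, 4 in KO/KO and 629 in BN, and the SHR/WKY-allele window, from 63222679 to 63225679, had 896, 1747, 1465, 15 and 392. WKY was the highest column in both windows, and only the side on which each library was stronger differed. On chromosome 16, at 1780 bp, WKY had 1623 in its own window (69657224 to 69660224) and -501 in the BN-allele window (69659004 to 69662004), where BN had 982 against -309. On chromosome 1, at 1582 bp, WKY had 1812 and 18 and BN -254 and 484 in the windows from 70709621 and 70711203. The last of the 5 pairs named for this type, on chromosome 2 at 852 bp, had WKY highest in both windows, with 1485 in the BN-allele window from 205527803 and 1874 in the other from 205528655, and BN at 415 and 79.

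Pairs of the SHR/WKY allele and a default site gave the contrast between PRDM9 sites and default sites. On chromosome 5, at 2603 bp, the default window from 126365623 to 126368623 had 404 in KO/KO and -22 in SHR, -35 in WKY, -19 in KO/wt and 5 in BN. Its neighbour from 126368226 to 126371226 had 341 in SHR, 1628 in WKY, 558 in KO/wt, -32 in KO/KO and 13 in BN. KO/KO led the first window and WKY the second. A WKY-called window on chromosome 17, from 80552415 to 80555415, stood between 2 default windows that start 1435 bp before and 2458 bp after it. WKY had 1045 in it and -258 and -56 in the default windows, where KO/KO had 434 and 396 and KO/wt, which called both, had 59 and 77. SHR stayed between 8 and 10 in these 3 windows, and KO/KO had 18 in the middle one.

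In another named pair of that type, on chromosome 14 at 2258 bp, the SHR/WKY-allele window from 86591587 had 397 in SHR, 1067 in WKY and 741 in KO/wt but a call in WKY alone, and the default window from 86593845 had 304 in KO/KO. Among pairs of the BN allele and a default site, BN had 460 and KO/KO -121 in the BN-allele window on chromosome 18 from 22695842, and BN -127 and KO/KO 606 in the default window 2171 bp before it. On chromosome 20, at 2133 bp, BN had 320 and -35 and KO/KO -92 and 332. At 1169 bp, on chromosome 15, the default window from 64389171 had -146 in BN and 270 in KO/KO while the BN-allele window had 392 in BN and still 208 in KO/KO. At 700 bp on chromosome 2 and 722 bp on chromosome 9 the signals ran together. BN had 329 and 300 in the first pair (from 262243160 and 262243860) and 270 and 232 in the second (from 82228657 and 82229379), and KO/KO had 211 and 266, and 229 and 358.

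**Figure D4:**
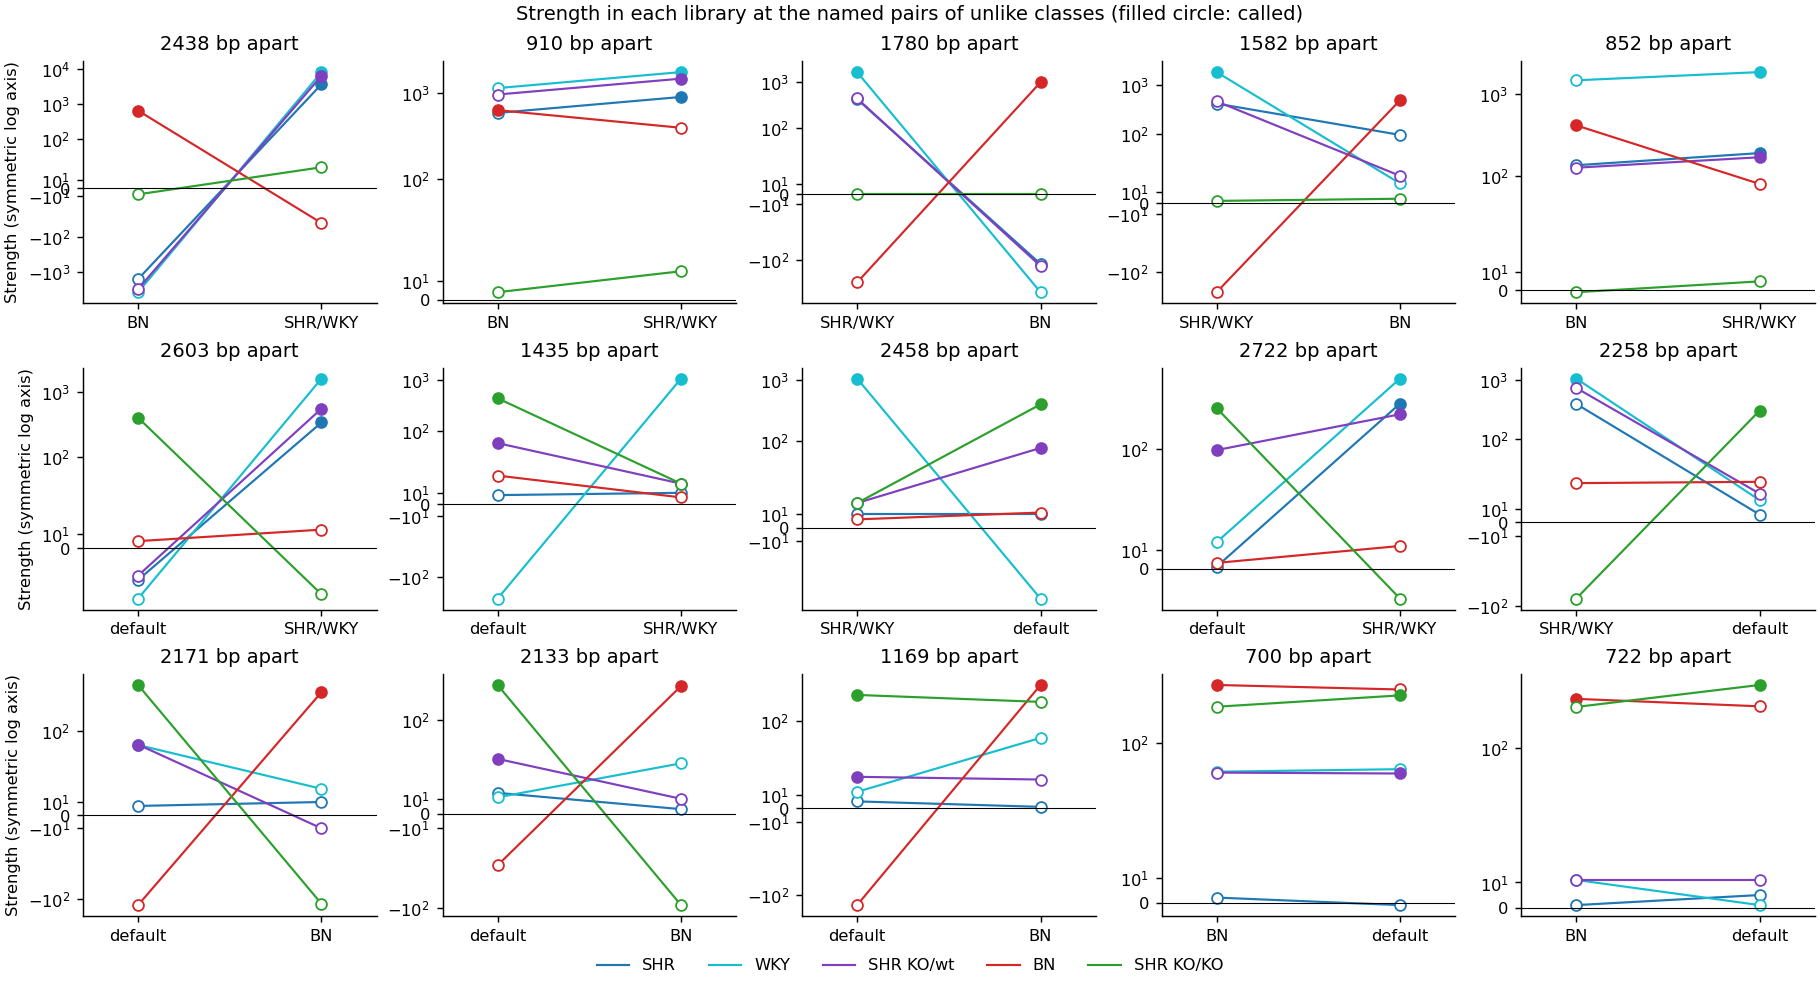
Strength on a symmetric log axis (y axis) in the left and right window (x axis, named by class) of the 5 strongest pairs of each unlike type, with 1 line per library and filled circles for called windows. The rows are SHR/WKY allele with BN allele, SHR/WKY allele with default and BN allele with default. Lines cross steeply in pairs more than 1500 bp apart, and most slope little in pairs below 1000 bp. BN in the pair at 852 bp (415 and 79) is an exception.

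Some like pairs carried signal in libraries that did not call them. The strongest SHR/WKY-allele pair, on chromosome 3 at 634 bp (53080201 and 53080835), had 1090 and 1028 in SHR, 6549 and 5894 in WKY and 1460 and 1334 in KO/wt, with the left window called in SHR and KO/wt and the right in WKY. A pair on chromosome 1 at 2137 bp, from 186992085 and 186994222, had 617 and 931 in SHR, 518 and 569 in WKY, 783 and 1129 in KO/wt and also 318 and 396 in KO/KO, without a KO/KO or KO/wt call. On chromosome 18, at 469 bp, the pair from 3213464 and 3213933 had 510 and 526 in SHR and 868 and 870 in WKY, with the left window called in WKY and the right in SHR and KO/wt.

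Of the BN-allele pairs, the strongest on chromosome 4 at 1243 bp (209836405 and 209837648) had 1298 and 1281 in BN but 2704 and 2533 in WKY, 227 and 225 in SHR, 363 and 433 in KO/wt and 270 and 290 in KO/KO, all uncalled. The next, on chromosome 7 at 2379 bp (37293031 and 37295410), had 344 and 387 in BN and at most 33 in any other library. In the last, on chromosome 15 at 2460 bp (68637593 and 68640053), BN had 266 and 201 and WKY 121 and 121. Not all default pairs were led by KO/KO in both windows, but the 3 named ones, chosen for their KO/KO strength, were. On chromosome 16 at 2832 bp (53860347 and 53863179) KO/KO had 182 and 303, with KO/wt at 34 and 80 and a KO/wt call on the stronger side. On chromosome 11 at 2705 bp (2625969 and 2628674) it had 284 and 179, and on chromosome 8 at 2853 bp (43635090 and 43637943) 308 and 164, with KO/wt between 17 and 20 in these 4 windows.

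Libraries that share an allele mostly ranked the windows of a like pair alike. In SHR/WKY-allele pairs with both windows called in WKY, the window that was stronger in WKY was also the stronger in SHR in 480 of 672 untied pairs (71.4%, 67.9 to 74.7%) and in KO/wt in 473 of 668 (70.8%, 67.3 to 74.1%). In BN it was the stronger in 55.1% (51.3 to 58.8%) and in KO/KO in 56.3% (52.5 to 60.1%), both below the other intervals. In default pairs, the side that led in KO/KO led in KO/wt in 368 of 545 (67.5%, 63.5 to 71.3%), in SHR in 54.8% (50.5 to 59.0%), in WKY in 51.9% (47.7 to 56.0%) and in BN in 51.9% (47.7 to 56.1%). For BN-allele pairs the shares were 53.2% in SHR (46.8 to 59.6%), 58.1% in WKY (52.0 to 63.9%), 52.8% in KO/wt (46.6 to 59.0%) and 52.4% in KO/KO (46.2 to 58.6%). All windows of a library share its depth and scale, and no pair is a replicate of another.

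Beside a neighbour 2000 bp or more away, strengths were compared by the class of that neighbour. The ratio described above was still negative from 2000 to 2200 bp in all 5 libraries (medians -0.179 in SHR, -0.119 in WKY and -0.178 in KO/KO), so these strengths are not free of the neighbour. WKY strength in SHR/WKY-allele windows had a median of 213.5 next to a default window, 209.5 next to a BN-allele window, 203 without an overlapping window and 148 next to another SHR/WKY-allele window (quartiles 95.5 and 260.5). KO/KO strength in default windows was 66 next to the SHR/WKY allele, 64 next to the BN allele, 64 without a neighbour and 42 next to another default window (24 and 79). BN strength in BN-allele windows lay between 71 and 76 in all 4 settings.

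In the KO/wt library, with 1 functional Prdm9 copy, both kinds of site were seldom called side by side. Of the 2285 pairs of the SHR/WKY allele and a default site, KO/wt called both windows in 36 (1.58%, 1.14 to 2.17%), the allele window alone in 1135, the default window alone in 94 and neither in 1020. KO/wt called 130 of the default windows in these pairs, which is the most that could be called on both sides. The 36 pairs stood at least 1229 bp apart (median 2424.5 bp). None of the 383 pairs below 1000 bp had both called. No 2 KO/wt calls of any class stood nearer than 1097 bp, so that count says nothing particular of allele and default sites. Pairs with 2 calls of 1 library below 1000 bp were nearly absent in every library, as given above.

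KO/wt called a default window next to the SHR/WKY allele in 5.69% of pairs (4.81 to 6.72%) and next to the BN allele in 4.75% (3.73 to 6.03%). Among all autosomal default windows it called 4.81%, and among those that overlap no other 4.84% (4.61 to 5.09%). With the SHR/WKY-allele window below 1000 bp away the share was 7.31% (28 of 383, 5.11 to 10.4%), with a median KO/wt strength of 41 in these default windows against 6 from 2000 bp on, and from 2000 bp on the share was 5.87% (4.60 to 7.47%). The interval below 1000 bp lay just above that of the windows that overlap no other, and the one from 2000 bp on overlapped it. SHR/WKY-allele windows were called in KO/wt in 51.2% (49.2 to 53.3%) beside a default window, in 42.5% (40.1 to 44.9%) beside a BN-allele window and in 47.0% (46.4 to 47.6%) without an overlapping window. Beside a default window below 1000 bp the share was 59.3% (54.3 to 64.1%), and from 2000 bp on 48.8% (45.8 to 51.8%). Beside the BN allele it was 40.7% (36.1 to 45.4%) and 43.7% (39.7 to 47.8%) at the same distances.

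In the 36 pairs with both called, KO/wt had medians of 66.5 in the allele window and 34 in the default window and was higher in the default window in 8. SHR had 84.5 and 4.5, WKY 305.5 and -2, BN 9.5 and 10.5 and KO/KO -18 and 210.5, and KO/KO was higher in the default window in all 36. The classes and the choice of pairs called in KO/wt fix much of this order, so the values are a description. On chromosome 14 at 2780 bp (110827863 and 110830643) KO/wt had 200 and 106, SHR 190 and 68 and KO/KO 8 and 133. On chromosome 9 at 2722 bp (117739520 and 117742242) the default window stood left, with 97 in KO/wt, 1 in SHR and 304 in KO/KO, beside 257, 344 and -16. The third, on chromosome 11 at 2822 bp (87056410 and 87059232), had 89, 14 and 390 in the default window and 122, 179 and -15 in the allele window. No pair of the 2 alleles (0 of 1608, which allows up to 0.187%) was called on both sides in KO/wt, which lacks the BN allele. Neither was one of the BN allele and a default site (0 of 1327, up to 0.226%). KO/wt called the BN-allele window in only 4 of the 1608 pairs and 2 of the 1327. Those are the most that could be called on both sides, so both counts of 0 were nearly fixed in advance.

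Pairs with a KO/wt-only window had the steepest course by distance. From 500 to 1000 bp there were 239 such pairs with a default window, against a mean of 21.2 per bin beyond 3 kb, and 131 with an SHR/WKY-allele window, against 14.4. The 721 KO/wt-only members lay close to their neighbours, at a median of 658 bp from the nearest window, and 544 of them (75.5%) at less than 1000 bp. The nearest window was a default window for 492 (68.2%), an SHR/WKY-allele window for 203 (28.2%), a BN-allele window for 14, a mixed window for 7 and another KO/wt-only window for 5. Next to a default window, KO/wt-only windows had median strengths of 34 in KO/wt, 227.5 in KO/KO, 6 in SHR, 24 in WKY and 9 in BN, and the default neighbour had 30, 211, 5, 20.5 and 8. Next to an SHR/WKY-allele window they had 47 in KO/wt, 43 in SHR, 212 in WKY, 9 in BN and 5 in KO/KO, and the neighbour 55, 55, 307, 9 and 3. KO/wt-only windows near a default site thus carried KO/KO signal at about the level of the neighbour, and those near an allele site SHR and WKY signal at a lower level than the neighbour, in both cases without a call there. The 220 KO/wt-only windows without an overlapping window had medians of 36 in KO/wt, 21 in SHR, 60 in WKY, 9 in BN and 4 in KO/KO.

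Where 1 SHR/WKY-allele, 1 default and 1 KO/wt-only window formed a group of 3, the KO/wt-only window stood in the middle in 54 of 67 groups (80.6%, 69.6 to 88.3%). In the 123 groups of 1 SHR/WKY-allele, 1 BN-allele and 1 default window, the middle was the SHR/WKY allele in 46 (37.4%, 29.4 to 46.2%), the BN allele in 42 (34.1%, 26.4 to 42.9%) and the default window in 35 (28.5%, 21.2 to 37.0%). These 3 intervals overlapped each other, and the interval of the KO/wt-only middle lay above all of them. In the 54 groups the outer starts lay 873 to 3764 bp apart, with a median of 1480 bp.

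The KO/wt medians in the 54 groups were 73 in the allele window, 74.5 in the middle and 35 in the default window. SHR had 57.5, 49.5 and 1.5, WKY 320.5, 253 and 8, KO/KO 7, 140 and 213, and BN 9, 9 and 8.5. The middle window thus had SHR and WKY signal as well as KO/KO signal. The windows overlap, and whether this signal came from the neighbours or from the middle position was not tested. Of the 2 groups shown here, chosen after their values were seen for the highest SHR and KO/KO strengths in the middle window, the first lay on chromosome 18 with starts at 26495310, 26496222 and 26497165. From the allele to the default window SHR had 331, 226 and -117, KO/wt 302, 250 and -13 and KO/KO -95, 394 and 729. The second, on chromosome 20 with starts at 52029017, 52029868 and 52030658, ran from default to allele, with KO/KO at 491, 404 and -12, SHR at -87, 158 and 179 and KO/wt at 74, 142 and 63. In it KO/wt was highest in the middle window, and in the first group it was highest in the allele window.

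**Figure D5:**
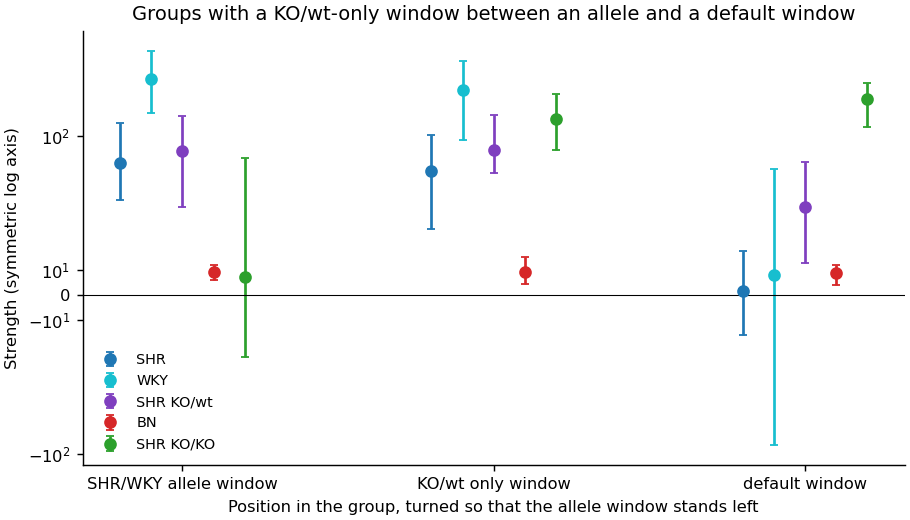
Strength on a symmetric log axis (y axis) in the allele, KO/wt-only and default window (x axis) of the 54 groups, with medians as points and quartiles as bars, 1 colour per library. KO/wt has its higher medians (73 and 74.5) in the first 2 windows, SHR is at 1.5 in the default window and KO/KO at 7 in the allele window.

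A default window stood between 2 KO/wt-only windows in 30 groups of 3, an SHR/WKY-allele window in 12 and a BN-allele window in 0. In the 30 groups KO/KO had medians of 262.5, 261.5 and 209 from left to right and KO/wt 31.5, 27.5 and 35.5, with outer starts 1569 to 4502 bp apart. Both libraries thus had signal in all 3 windows, while the KO/KO call stood in the middle one and the KO/wt calls on either side.

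The nearest starts of the table, 401 bp apart, occurred in 5 pairs. One on chromosome 1 (140049484 and 140049885) was called in SHR on the left and in WKY on the right, with 31 and 13 in SHR and 132 and 180 in WKY. A default window on chromosome 5 (4818345), with 1344 in KO/KO and 114 in KO/wt, was followed by a KO/wt-only window (4818746) with 1275 and 111. On chromosome 6 (65289534 and 65289935) a WKY-called and a BN-called window had 172 and 153 in WKY and 114 and 131 in BN.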

How the data were processed

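DMC1 SSDS was measured in 5 of the 13 samples of the series (adult testes, 1 library per condition), and the H3K4me3 and input libraries were not analysed here. The authors mapped reads to rn5 using a modified BWA (0.7.12), called hotspots from uniquely mapping single-stranded fragments of type 1 with an alignment score over 30 in both reads, and deposited 1 merged table of all libraries, in which the strength is a score and the call a score of 0 or 1. The submitters' processing notes also name MACS2 2.1.0.20150420 and bedtools 2.23.0. How strength was computed and windows were merged is not given in the sources used here, and the depth in reads is unknown. Neighbouring windows share reads, so their strengths are not independent.

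Windows of chromosomes 1 to 20 were sorted by position, and a group joined windows with consecutive starts less than 3000 bp apart. Shares carry Wilson 95% intervals, which cover counting error only, and a share of 0 the limit that 3 counts allow. Scaled strengths were divided by the median of the library over called autosomal hotspots. Named pairs were, for each unlike type, the 5 and, for each like type, the 3 with the highest scaled strength of the own class on the weaker side, 3 pairs with both windows called in KO/wt, 3 of the nearest pairs, the largest groups and the pairs at the limit. Members, classes, comparisons and the rule for named pairs were chosen with earlier results of these data known. The alternatives were another distance limit, chromosome X, all pairs, groups of exactly 2, classes by strength, other scales and stronger hotspots only. Computations used Python 3.11.15, numpy 2.4.6, pandas 2.3.3 and matplotlib 3.10.9, and the scripts recovered all 6 values set in simulated data. The Prdm9 cDNA sequences came from the study's supplementary sequences.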

Additional observations from a re-analysis of the deposited data

How the results depend on the processing

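No paired analysis was possible because each strain and genotype had a single library and nothing was tested. For the same reason no replicate could be left out. Strength has no known definition, and signal shared between windows limits what the strength of an overlapping window says of that window. Across 49 recomputed values, 0 changed sign, which only the ratios in uncalled neighbours could do, since counts and shares cannot be negative. Of the 49, 14 lay inside the 95% interval of the value reported above (or within 1.5 times the count of members) and 35 lay outside. The causes of these shifts were not tested.

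With a start distance below 1500 bp, 6704 autosomal windows were members instead of 15870. The share of unlike pairs, 61.7%, was 60.7% over all window pairs below 3000 bp, 66.0% in groups of exactly 2, 52.1% with the class taken from the highest strength as deposited and 53.8% with it taken from the scaled strength. Adding chromosome X kept both results within their limits. For hotspots at or above the library median, the share that overlapped was 14.8% in SHR, 15.7% in KO/wt and 14.3% in KO/KO, and WKY and BN stayed within their intervals. When only a window called in the same library counted, which leaves fewer neighbours by construction, it was 2.46% in SHR, 4.12% in WKY, 2.38% in KO/wt and 3.26% in BN, and in KO/KO 3.40%.

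The share of members led by each library changed with every scale. Divided by the library median it was 3.97% for SHR, 32.5% for WKY, 7.57% for KO/wt, 21.7% for BN and 34.3% for KO/KO. Divided by the library sum it was 11.04%, 24.6%, 6.95%, 24.3% and 33.2%, and by rank within the library 12.5%, 19.0%, 11.05%, 26.2% and 31.3%. WKY led more members than any other library only as deposited. The median ratio in uncalled neighbours below 1000 bp, for called hotspots at or above the library median, was 0.862 in SHR, 0.851 in WKY, 0.882 in KO/wt and 0.850 in BN, with 0.873 in KO/KO. The mean without the highest and lowest 5% was 0.851 in WKY and 0.858 in BN. In groups of exactly 2 all 5 ratios stayed within their intervals. The share of SHR/WKY-allele and default pairs with both windows called in KO/wt stayed within its interval in both alternatives, at 1.498% over all pairs and 1.89% from 1000 bp on.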

Other observations

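The groups with the most overlapping windows held 7 each, and neither had a default window. In the first, on chromosome 3 of rn5 with starts from 179178743 to 179191641, all 7 windows were called in WKY alone. Their WKY strengths ran from 63 to 167, while SHR stayed between -9 and 24 and KO/KO between -2 and 18. In the second, on chromosome 8 with starts from 10613944 to 10624285, WKY called 3 windows and BN the other 4. WKY was the highest column in all 7, with 199 to 744, and BN ranged from 43 to 167 without being higher in the windows it called (43, 167, 99 and 104) than in the others (119, 98 and 94). SHR, which has the allele of WKY, stayed between -15 and 32 there.

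On chromosome X, which was no part of the comparisons above, 1376 of 5520 windows (24.9%, 23.8 to 26.1%) had another start within 3000 bp, above the highest autosomal share (19.7% on chromosome 14).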
